A study of Mus musculus with 29 samples.

Results

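The genes described are 47 genes of fatty acid oxidation and of the peroxisome, taken from a list by their known function, with earlier results of these data known. All 47 were found among the 13982 genes of the table. Their RNA was measured in 14 libraries of (NZBxNZW)F1 mice, a hybrid strain that spontaneously develops a lupus-like disease with nephritis. Kidney (4 libraries, mice H6, H20, H115 and H117), tertiary lymphoid structures (TLS, 3 libraries, mice H6, H20 and H115) and lymph node (3 libraries, mice H6, H20 and H117) came from proteinuric mice aged 25 to 39 weeks. The other lymph nodes came from anti-dsDNA antibody-positive mice (3 libraries, mice D10, D11 and L25, aged 28, 29 and 18 weeks) and from a young mouse of 4 weeks (1 library, mouse C45). TLS are aggregates of lymphocytes that form in inflamed tissue, here dissected by hand under a loupe from the proteinuric kidney, and kidney tissue came from the same organ. The labels name no treatment, and each library is 1 mouse and tissue.

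Beta-oxidation shortens fatty acids stepwise. An acyl-CoA synthetase activates the fatty acid, the carnitine shuttle carries it into the mitochondrion, and a dehydrogenase, a hydratase, a second dehydrogenase and a thiolase release acetyl-CoA. Peroxisomes hold a parallel set of enzymes for very long and branched chains, together with oxidases that make hydrogen peroxide and catalase that removes it. The proximal tubule of the kidney is rich in mitochondria and peroxisomes and relies on fatty acids as a fuel, and many of these genes are targets of the nuclear receptor PPARalpha.

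Levels are normalized values, in which the reads of a gene plus 1 are scaled by a size factor per library. Fold changes are given on the log2 scale of value + 1, with ± for their standard error (SE). They are given in the order of mice H6, H20, H115 and H117 for kidney, of mice H6, H20 and H115 for TLS, of mice H6, H20 and H117 for lymph node of proteinuric mice, and of mice D10, D11 and L25 for lymph node of antibody-positive mice. A library held between 343825 and 443379 reads, so that 3 reads were worth a value between 3.14 and 7.10. Ribosomal RNA made up 59.6% of the reads of the kidney of mouse H117, 32.8% of the lymph node of mouse H6 and 24.6% of the TLS of mouse H115, and at most 7.58% elsewhere. The tissue labels were checked with marker genes. Proximal tubule markers (19 genes in the table) summed to 8616, 10539, 26329 and 20614 in kidney, to 1767, 4609 and 9992 in TLS and to between 103 and 187 in lymph node. Markers of B and T lymphocytes (11 genes) summed to between 0 and 40.5 in kidney, to 737, 489.6 and 503 in TLS and to between 1049 and 1888 in lymph node. In bulk tissue, fewer cells of a type and less RNA per cell cannot be told apart. Libraries of different tissues from the same mouse are not independent.

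The first question was how the members differed between kidney, TLS and lymph node of proteinuric mice. Of the 47 members, 44 had a mean value of at least 5 and were tested, and Acsm3, Ppara and Ppargc1a were not. The mean of kidney was above that of TLS in all 44 and above that of lymph node in 43, the exception being Acaa1a. In kidney versus TLS, 17 of the 44 tested members were up-regulated in kidney (adjusted p under 0.05 in limma) and 0 in TLS, against 6.07% of the 7382 tested genes of the table. Of all 1084 genes called, 41.3% were higher in kidney, and 20.4% of 830 with edgeR on the recovered reads. With an unadjusted p under 0.05 in limma there were 33 members, all higher in kidney, against 2156 of the 7382 tested genes in either direction. In kidney versus lymph node, 37 members were up-regulated in kidney and 0 in lymph node, against 23% of the tested genes. Of the 44, 15 had at most 3 reads in each of these lymph nodes and passed the filter through kidney and TLS. They could not be called as higher in lymph node, here, against TLS or in the counts by role below. In lymph node versus TLS, 15 members were up-regulated in TLS and 0 in lymph node, against 8.87% of the tested genes. This count was 8 with the mouse as a term of the model, 8 without the TLS of mouse H115, 9 without the lymph node of mouse H117 and 7 without the libraries over 20% ribosomal RNA. Of all 780 genes called there, 16.0% were higher in lymph node, and 4.84% of 785 with edgeR. The 17 members called against TLS were all among the 37 called against lymph node, and both comparisons use the same kidney libraries.

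The size of the differences was described by the median log2 fold change. It was 1.15 over the 44 members in kidney over TLS and 0.01 over all genes, and 1.97 in kidney over lymph node, where all genes had −0.05. In lymph node over TLS it was −0.82, with 0.04 for all genes. A total of 15 of the tested members had at most 3 reads in every lymph node of the proteinuric mice, so that their fold changes depend on the added read. With these members set to their bound at 3 reads, the medians were 1.78 for kidney over lymph node and −0.59 for lymph node over TLS. Every kidney value lay above every TLS value in 24 of the 44 members, against 12% of all genes. Every kidney value lay above every lymph node value in 36 members, against 25.5% of all genes, and every TLS value above every lymph node value in 19, against 17.4%. Within the 3 mice that gave both tissues, 41 of the 44 tested members were lower in TLS than in kidney in each mouse, against 34.5% of all genes. The TLS mean lay between those of lymph node and kidney in 38 of the 47 members. In the other 9 (Acads, Acadvl, Hadha, Hadhb, Acaa2, Acox3, Acaa1a, Pex19 and Acsm3) it was below lymph node, although Acsm3 had no read in either tissue. The heat map of members by library shows these levels.

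**Figure D1:**
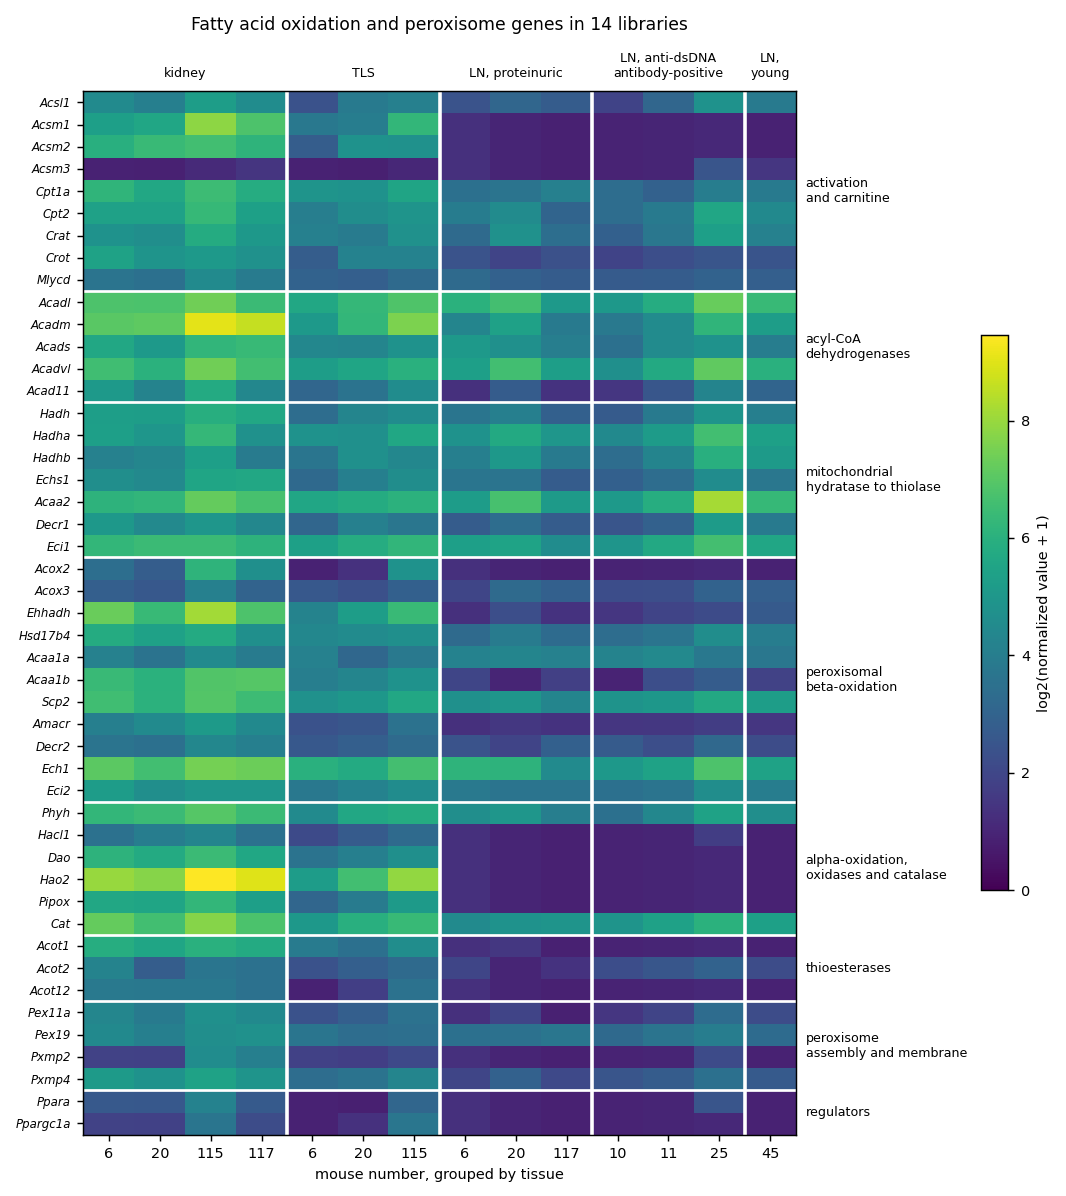
Heat map of log2(normalized value + 1) for the 47 members (rows, in the order of their roles) in the 14 libraries (columns, by mouse number without its letter within each tissue; LN, lymph node). The kidney mean is above the TLS mean throughout, the TLS mean lies between lymph node of proteinuric mice and kidney in 38 members and below lymph node in 9, and members such as Hao2, Dao and Acsm2 are dark in every lymph node while Acadl, Acadvl and Acaa2 are not. Acsm3 is counted in these orders only through the added read, since it had no read in kidney, TLS or lymph node of proteinuric mice.

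The number of calls against TLS rested on single libraries. It fell from 17 to 5 without the kidney of mouse H115 or without the TLS of mouse H6, to 7 without the TLS of mouse H20 and to 10 without the kidney of mouse H117, and it was 24 without the TLS of mouse H115. Count tests on the recovered reads called between 5 (edgeR with TMM) and 11 (DESeq2). Acaa1b, Acot1, Amacr and Dao were called against TLS under every alternative in which they were tested, and no alternative called a member as higher in TLS.

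Activation and transport is the entry of fatty acids into the pathway. All 8 tested members of this group were called as higher in kidney against lymph node and 2 (Acsm2 and Crot) against TLS, and 4 (Acsm1, Acsm2, Cpt1a and Crot) were higher in TLS than in lymph node. The shares of all tested genes were 23%, 6.07% and 8.87%. Acsm2, a medium-chain acyl-CoA synthetase (ENSMUSG00000030945, chromosome 7, 119554340 to 119600690; GRCm38), had values of 61.9, 83.5, 96.2 and 69.2 in kidney and 5.94, 27.5 and 26.2 in TLS. No lymph node library held a read of it. The kidney values all lay above those of TLS, with a log2 fold change of 2.15 ± 0.45 and an adjusted p of 0.00664, and the mean kidney value was at least 13.4-fold higher than lymph node (taken at the value of 3 reads). Acsm1, a neighbouring gene of the same family, had values of 39.8, 47.2, 227 and 112 in kidney and 12.7, 14.9 and 76.3 in TLS and likewise no read in the 7 lymph nodes. Here the groups overlapped, since the TLS of mouse H115 stood above the kidneys of mice H6 and H20 (log2 fold change 1.72 ± 0.67, adjusted p 0.113). Crot, the peroxisomal carnitine octanoyltransferase, had 42.4, 28.7, 33.6 and 26.6 in kidney, 5.94, 17.3 and 17.4 in TLS and 4.35, 2.84 and 4.05 in lymph node. It was higher in kidney than in TLS by 1.33 ± 0.37 on the log2 scale (adjusted p 0.0291). The carnitine palmitoyltransferases Cpt1a and Cpt2, which form the shuttle of the mitochondrion, differed from TLS by 0.96 and 1.13 without a call (adjusted p 0.0699 and 0.0875), although their kidney and TLS values did not overlap. The group also held Acsl1, Crat and Mlycd, which activate long chains, transfer acetyl groups to carnitine and degrade malonyl-CoA. Their mean kidney values were 24.6, 34.9 and 14.5, and they were called against lymph node only. Acsm3 had no read in any kidney or TLS library and at most 3 reads in a lymph node.

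The acyl-CoA dehydrogenases take the first step of mitochondrial beta-oxidation, and each prefers a chain length. Acadm, the medium-chain enzyme (ENSMUSG00000062908, chromosome 3, 153922357 to 153944632), had values of 129.97, 137, 535 and 387 in kidney, 33.1, 76.2 and 189 in TLS and 18.8, 41.7 and 13.8 in lymph node. The kidneys of mice H115 and H117 stood apart from those of mice H6 and H20, and the TLS of mouse H115 lay within the range of the kidneys. Against TLS the log2 fold change was 1.64 ± 0.67 with an adjusted p of 0.124, and against lymph node it was 3.42 ± 0.67 with an adjusted p of 0.00123. Acadl, the long-chain enzyme, had 111, 109.7, 167 and 85.2 in kidney, 50.03, 77.8 and 113 in TLS and 65.2, 96.6 and 33.2 in lymph node. These values overlapped between all 3 tissues, and no comparison was called (adjusted p 0.418 against TLS and 0.0999 against lymph node). Acads, the short-chain enzyme, had 50.4, 33.7, 73.02 and 81.6 in kidney, 19.5, 18.9 and 27.3 in TLS and 33.3, 25.6 and 15.4 in lymph node. It was called in both comparisons, with log2 fold changes of 1.35 ± 0.38 over TLS (adjusted p 0.0318) and 1.22 ± 0.38 over lymph node (adjusted p 0.0204). The TLS and lymph node values overlapped. Acadvl, the very long-chain enzyme, had a mean kidney value of 105.3 and was called in neither (adjusted p 0.129 and 0.105). Its exons share 42.9% of their bases with Dvl2 on the opposite strand, which had values of at most 4.76. Acad11, a dehydrogenase of the same family, stood lower in lymph node than in kidney, where kidney exceeded it by 3.05 ± 0.49 (adjusted p 2.8e-04), and lower than in TLS (−1.95 ± 0.52, adjusted p 0.0317).

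The following steps take place in the mitochondrion. Of the 7 members from hydratase to thiolase, 1 (Hadh, 14.3%) was called as higher in kidney against TLS and 4 (57.1%) against lymph node, beside 6.07% and 23% of all genes. Between lymph node and TLS 0 of 7 were called, beside 8.87% of all genes higher in TLS. Hadha and Hadhb, the subunits of the trifunctional protein, had log2 fold changes of 0.28 ± 0.42 and 0.17 ± 0.42 over TLS and of 0.18 ± 0.42 and 0.10 ± 0.42 over lymph node. These signs turned when the kidney of mouse H115 was left out (−0.034 and −0.12 over TLS, −0.14 and −0.20 over lymph node). The sign of Hadhb over TLS also turned without the TLS of mouse H6 (−0.12). Over lymph node it turned without the lymph node of mouse H6 (−0.027) or of mouse H117 (−0.13). Hadh, the short-chain hydroxyacyl-CoA dehydrogenase, had 38.02, 37.1, 60.3 and 49.7 in kidney, 9.33, 18.9 and 22.9 in TLS and 11.6, 16.1 and 6.47 in lymph node. All 4 kidneys stood above both other tissues (over TLS 1.45 ± 0.39, adjusted p 0.0241). Acaa2, the mitochondrial thiolase, had 67.2, 74.2, 147 and 103 in kidney, 46.6, 55.8 and 66.5 in TLS and 36.2, 104 and 34.8 in lymph node. The kidneys lay above the TLS without overlap but the lymph node of mouse H20 reached the kidney range, and neither comparison was called (adjusted p 0.301 and 0.132). Eci1, an enoyl-CoA isomerase, had 75.2, 86.9, 86.9 and 67.4 in kidney, 39.9, 57.4 and 74.1 in TLS and 39.1, 43.6 and 23.5 in lymph node. It was higher in kidney than in lymph node by 1.18 ± 0.34 on the log2 scale (adjusted p 0.0136), while the TLS of mouse H115 lay within the kidney range (adjusted p 0.373 against TLS). Decr1, a dienoyl-CoA reductase, was just outside the threshold against TLS (log2 fold change 1.06 ± 0.33, adjusted p 0.0501). Echs1, the enoyl-CoA hydratase for short chains, was called against lymph node (1.76 ± 0.43, adjusted p 0.00516) and not against TLS (adjusted p 0.107).

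**Figure D2:**
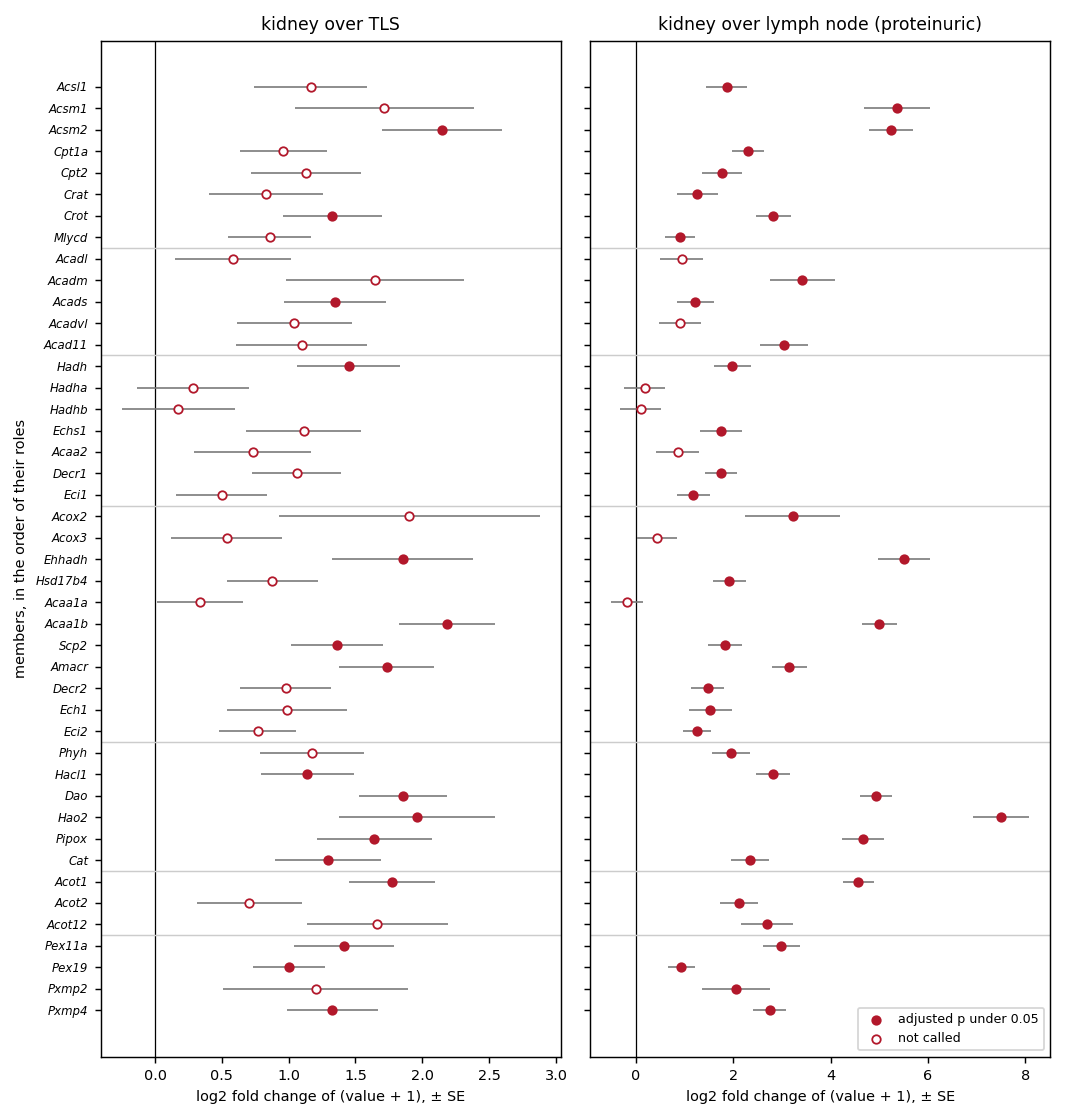
Log2 fold change of value + 1 with its standard error for the 44 tested members, kidney over TLS (left) and kidney over lymph node of proteinuric mice (right), in the order of their roles. Filled points passed an adjusted p of 0.05 in limma (17 left, 37 right), and the points of Hadha, Hadhb and Acaa1a lie near 0 in both panels.

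Of 11 members of peroxisomal beta-oxidation, 4 (Acaa1b, Amacr, Ehhadh and Scp2) were up-regulated in kidney compared with TLS and 9 compared with lymph node. The shares of all tested genes were 6.07% and 23%. Ehhadh, the bifunctional hydratase and dehydrogenase, had 155, 81.8, 280.5 and 112 in kidney, 17.8, 37.7 and 82.9 in TLS and 1.45, 3.79 and 1.62 in lymph node. Its highest TLS value, in mouse H115, just passed the lowest kidney value, in mouse H20. The log2 fold change over TLS was 1.85 ± 0.53 (adjusted p 0.0334), and kidney was at least 27.1-fold higher than lymph node. Amacr, a racemase for branched-chain acyl-CoA, had 15.9, 21.9, 34.8 and 21.3 in kidney, 4.24, 4.72 and 10.9 in TLS and at most 1 read in any lymph node (over TLS 1.73 ± 0.36, adjusted p 0.00637). Scp2, sterol carrier protein with a thiolase isoform, had 91.9, 66.6, 119 and 88.7 in kidney, 26.3, 30.7 and 50.2 in TLS and 26.1, 30.3 and 18.6 in lymph node (over TLS 1.36 ± 0.34, adjusted p 0.0187). Its TLS and lymph node values overlapped. Ech1, a dienoyl-CoA isomerase, had 132, 94.5, 178 and 159.7 in kidney, 62.7, 53.4 and 97.04 in TLS and 69.6, 67.3 and 21.9 in lymph node. It was called against lymph node (1.53 ± 0.45, adjusted p 0.0146) and not against TLS (adjusted p 0.165). The branched-chain oxidase Acox2 had no read in any lymph node and varied widely in kidney, with 9.73, 5.90, 69.5 and 24.8, and in TLS, with 0.848, 1.57 and 27.3. Hsd17b4, the D-bifunctional enzyme, Decr2, a reductase, and Eci2, an isomerase, were called against lymph node (log2 fold changes 1.92, 1.47 and 1.26) and not against TLS (0.88, 0.98 and 0.77, adjusted p 0.108, 0.0747 and 0.0984). Acox3, another oxidase, was called in neither, with a mean kidney value of 8.64.

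The thiolases Acaa1a and Acaa1b are near copies that take the last peroxisomal step, and their coding sequences are 96.5% identical over 1272 bases. Their levels went apart. Acaa1b (ENSMUSG00000010651, chromosome 9, 119148023 to 119157093) had 83.99, 64.1, 116 and 124 in kidney, 15.3, 18.9 and 27.3 in TLS, 2.90, 0.947 and 2.43 in lymph node of proteinuric mice, 0.927, 3.81 and 5.74 in lymph node of antibody-positive mice and 2.68 in the young mouse. Each step from kidney to TLS and from TLS to lymph node was without overlap, with log2 fold changes of 2.18 ± 0.36 for kidney over TLS (adjusted p 0.00168) and −2.82 ± 0.38 for lymph node against TLS (adjusted p 4.6e-04). Acaa1a (ENSMUSG00000036138, chromosome 9, 119339676 to 119350299) had 16.8, 10.97, 22.02 and 14.2 in kidney, 16.96, 7.86 and 13.1 in TLS, 17.4, 18.9 and 16.995 in lymph node of proteinuric mice, 17.6, 20.9 and 12.6 in antibody-positive mice and 12.5 in the young mouse. It was the only member with a higher mean in lymph node (17.8 ± 1.03, SD, n = 3) than in kidney (15.996 ± 4.67, SD, n = 4), a difference that the test did not call (log2 fold change of kidney over lymph node −0.18 ± 0.32, adjusted p 0.680). Per kilobase of exon, the mean kidney value of Acaa1b was 49.5 and that of Acaa1a 3.62. The exon length was the union over all annotated transcripts, with 1962 bases for Acaa1b and 4414 for Acaa1a. Both coding sequences have 1272 bases, and without the division the kidney means were 97.1 and 16.0. Reads of near copies can be split between them by the mapping, so the pair is uncertain. The exons of Acaa1a also share 290 of their 4414 bases with Myd88 on the opposite strand. Myd88 had values of 8.84, 6.75, 2.32 and 1.77 in kidney, 18.7, 11.003 and 1.09 in TLS, 17.4, 21.8 and 13.8 in lymph node of proteinuric mice, 19.5, 22.8 and 3.44 in that of antibody-positive mice and 16.1 in the young mouse. In the TLS of mouse H115, without a read of Myd88, Acaa1a stood at 13.1, and in the lymph node of mouse L25, with 2 reads, at 12.6.

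The promoters of the pair are shown because the near-identical genes had such different levels. The 250 bases before the RefSeq start (GRCm38.p6) shared no run longer than 8 bases, and neither held the letters AGGTCA on either strand. They are written 5′ to 3′ on the strand of the gene.
Acaa1a, chr9:119341044-119341293, plus strand: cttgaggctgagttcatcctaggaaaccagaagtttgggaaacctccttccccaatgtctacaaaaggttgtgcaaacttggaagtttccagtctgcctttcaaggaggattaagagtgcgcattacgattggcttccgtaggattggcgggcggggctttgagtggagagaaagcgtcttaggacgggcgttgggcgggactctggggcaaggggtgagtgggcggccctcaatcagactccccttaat
Acaa1b, chr9:119157094-119157343, minus strand: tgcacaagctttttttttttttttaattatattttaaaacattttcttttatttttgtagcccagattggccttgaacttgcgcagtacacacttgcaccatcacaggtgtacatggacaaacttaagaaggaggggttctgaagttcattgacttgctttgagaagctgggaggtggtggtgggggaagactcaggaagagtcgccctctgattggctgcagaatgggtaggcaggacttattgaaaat

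**Figure D3:**
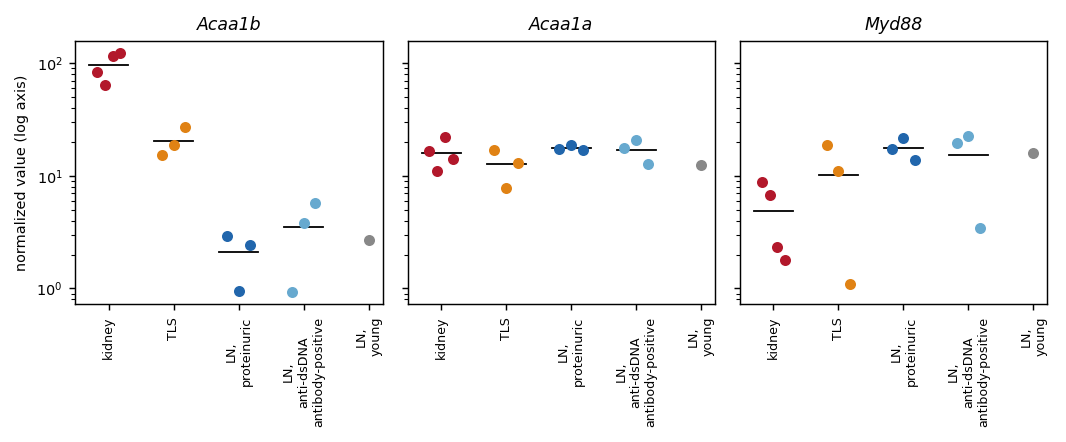
Normalized values (log axis) of Acaa1b, Acaa1a and Myd88 in each library (points) by tissue and disease state, with group means (lines; LN, lymph node; the young group is 1 library). Acaa1b lies between 64.1 and 124 in kidney and at or under 5.74 in every lymph node, while Acaa1a lies between 7.86 and 22.02 in all 14 libraries.

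Of the 6 members of alpha-oxidation, the oxidases and catalase, 5 were up-regulated in kidney compared with TLS, and all 6 compared with lymph node. The shares of all tested genes were 6.07% and 23%. Against TLS, Dao was called in all 23 alternatives. Pipox lost its call in 7 of 23, Cat and Hao2 in 13 of 23 each and Hacl1 in 15 of 22. Hao2, an oxidase of long-chain hydroxy acids (ENSMUSG00000027870, chromosome 3, 98874521 to 98893239), had 256, 210.03, 698 and 502 in kidney and 36.5, 94.3 and 242 in TLS. No read was found in any of the 7 lymph nodes, so that kidney was at least 71.9-fold higher, and TLS at least 21.4-fold higher, than these. The TLS of mouse H115 lay above the kidney of mouse H20 (kidney over TLS 1.96 ± 0.58, adjusted p 0.0404). Per kilobase of exon, Hao2 had the highest mean kidney value of the members (203), followed by Acadm (76.02) and Acaa2 (64.6). This order depends on the same union of annotated exons as length. Dao, D-amino acid oxidase (ENSMUSG00000042096, chromosome 5, 114003703 to 114025682), had 67.2, 53.1, 85.8 and 47.9 in kidney and 11.02, 15.7 and 25.1 in TLS. It was also without a read in every lymph node, and its kidney and TLS values did not overlap (log2 fold change 1.86 ± 0.33, adjusted p 0.00276). Pipox, which oxidizes pipecolic acid and sarcosine, had 50.4, 46.4, 75.3 and 39.05 in kidney and 7.63, 14.1 and 34.9 in TLS, and no read in lymph node (over TLS 1.64 ± 0.43, adjusted p 0.0221). Hacl1, the lyase of alpha-oxidation, had 10.6, 15.2, 18.5 and 10.6 in kidney and 3.39, 5.50 and 8.72 in TLS (over TLS 1.14 ± 0.35, adjusted p 0.0460). The lymph nodes held 0 reads of it, except for 1 read in mouse L25. Cat, catalase, had 148, 96.2, 213 and 108 in kidney, 32.2, 61.3 and 80.7 in TLS, 21.7, 27.5 and 28.3 in lymph node of proteinuric mice and 28.7, 40.9 and 65.4 in that of antibody-positive mice. Unlike the oxidases it was found in every lymph node, and kidney stood above TLS by 1.29 ± 0.40 (adjusted p 0.0458) and above lymph node by 2.35 ± 0.40 (adjusted p 4.0e-04). Phyh, phytanoyl-CoA hydroxylase, was called against lymph node only (adjusted p 0.00130, and 0.0630 against TLS).

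Thioesterases release the fatty acid from CoA again. Acot1, a cytosolic long-chain thioesterase (ENSMUSG00000072949, chromosome 12, 84009490 to 84018371), had 57.5, 46.4, 62.6 and 53.2 in kidney, 14.4, 10.2 and 23.99 in TLS and at most 1 read in any lymph node. Its values in the 4 kidneys were close to each other (mean 54.9 ± 6.85, SD, n = 4) and far above the TLS (log2 fold change 1.77 ± 0.32, adjusted p 0.00302). Acot2, its mitochondrial neighbour with a coding sequence 95.6% identical over the aligned bases, was called against lymph node (adjusted p 8.6e-04) but not against TLS (adjusted p 0.268), and reads of this pair may also be split by the mapping. Acot12, a cytosolic hydrolase of acetyl-CoA, had 13.3, 12.7, 12.7 and 10.6 in kidney, 0.848, 2.36 and 10.9 in TLS and no read in lymph node. The TLS of mouse H115 lay in the kidney range and that of mouse H6 held no read (over TLS 1.66 ± 0.53, adjusted p 0.0530).

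Among the 4 genes of peroxisome assembly and membrane, 3 were called as higher in kidney against TLS and all 4 against lymph node. The shares of all tested genes were 6.07% and 23%. Pex11a, which drives peroxisome division, had 19.5, 13.5, 25.5 and 21.3 in kidney, 4.24, 6.29 and 10.9 in TLS and 1.45, 2.84 and 0.809 in lymph node (over TLS 1.41 ± 0.37, adjusted p 0.0234). Pex19, the import receptor for membrane proteins, had 21.2, 16.03, 24.3 and 26.6 in kidney, 11.9, 9.43 and 9.81 in TLS and 10.1, 10.4 and 12.1 in lymph node. Its TLS and lymph node values overlapped and differed by 0.07 ± 0.29, and kidney stood above TLS by 1.00 ± 0.27 (adjusted p 0.0257). Pxmp4, a membrane protein, had 34.5, 26.99, 42.9 and 28.4 in kidney, 9.33, 11.003 and 18.5 in TLS and 2.90, 6.63 and 3.24 in lymph node (over TLS 1.33 ± 0.34, adjusted p 0.0205). Pxmp2, a membrane channel, had 2.65, 2.53, 23.2 and 15.97 in kidney, where mice H115 and H117 stood apart from mice H6 and H20, and at most 2 reads in each TLS. Its mean kidney value was at least 1.91-fold higher than lymph node, and it lost this call in 4 of 20 alternatives. The regulators were at the limit of detection. Ppara, the receptor PPARalpha, had 5.30, 5.06, 17.4 and 5.32 in kidney, 0.848, 0.786 and 7.63 in TLS and no read in the lymph nodes of proteinuric mice, and Ppargc1a, its coactivator, had 2.65, 2.53, 11.6 and 3.55 in kidney and 0.848, 1.57 and 11.99 in TLS. Both genes were highest in mouse H115 in kidney and in TLS, and the other TLS held at most 1 read.

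A common feature that the choice of the members did not use was searched for in their promoters, because PPARalpha binds as a heterodimer to direct repeats of AGGTCA that lie 1 base apart. RefSeq promoters (GRCm38.p6, 250 bases before to 50 after the start) were matched for 40 members with 45 starts. The letters AGGTCA on either strand were found in 22.2% of these and in 16.3% of the 32851 promoters of all genes. The repeat AGGTCANAGGTCA with at most 2 mismatches on either strand was found in 8.89% (Cat, Echs1, Acot12 and Acox2) and in 3.86% of all promoters. A match of letters says nothing on binding. The stretches around the repeat are shown for the 3 members where it lies before the start, with the repeat in capitals, 5′ to 3′ on the strand of the gene. The repeat begins at −204, −83 and −110 from the start in Cat, Echs1 and Acot12, with 2, 2 and 1 mismatches, and lies on the opposite strand in Acot12.
Cat, chr2:103485315-103485387, minus strand: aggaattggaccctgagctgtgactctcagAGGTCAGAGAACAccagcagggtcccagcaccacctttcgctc
Echs1, chr7:140116462-140116534, minus strand: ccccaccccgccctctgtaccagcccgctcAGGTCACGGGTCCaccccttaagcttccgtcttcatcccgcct
Acot12, chr13:91741381-91741453, plus strand: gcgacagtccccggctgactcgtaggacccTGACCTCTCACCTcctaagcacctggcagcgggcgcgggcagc
Of these genes, Cat was called in kidney against both tissues, and Echs1 and Acot12 against lymph node only.

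How much of the kidney signal was found in TLS was described by the summed reads of all 47 members, divided by the size factor and without the added read. The sum was 2383, 1982, 4457 and 2883 in kidney, 704, 1052 and 1801 in TLS and 519, 818 and 401 in lymph node. Relative to the mean kidney, the TLS of mice H6, H20 and H115 held 24.1%, 35.9% and 61.6%, and relative to the kidney of the same mouse 29.5, 53.1 and 40.4%. Proximal tubule markers in the same TLS held 20.5, 43.7 and 37.95% of the kidney of the same mouse, in the same order of mice. By role, these shares were 17.9, 47.1 and 36.5% for alpha-oxidation, oxidases and catalase and 19.8, 26.4 and 48.3% for thioesterases. They were higher for the mitochondrial steps from hydratase to thiolase in each mouse, at 50.5, 74.1 and 54.3%. In lymph node the mitochondrial steps held 50.1% of the mean kidney, against 6.10% for alpha-oxidation, oxidases and catalase and 0.790% for the tubule markers. The proximal tubule markers moved with the members across the tissues, with 13 of 19 up-regulated in kidney compared with TLS and all 19 compared with lymph node. The shares of all tested genes were 6.07% and 23%. The part of tubule tissue left in the dissected TLS in these values was not tested. TLS also held markers of urothelium, the lining of the renal pelvis (5 genes, summing to 402, 129 and 731, against at most 20.9 in kidney). Markers of brown adipocytes in the TLS of mice H6, H20 and H115 stood at 35.3, 437 and 30.6% of the kidney of the same mouse. The part of fat in the shares of mouse H20 was not tested.

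**Figure D4:**
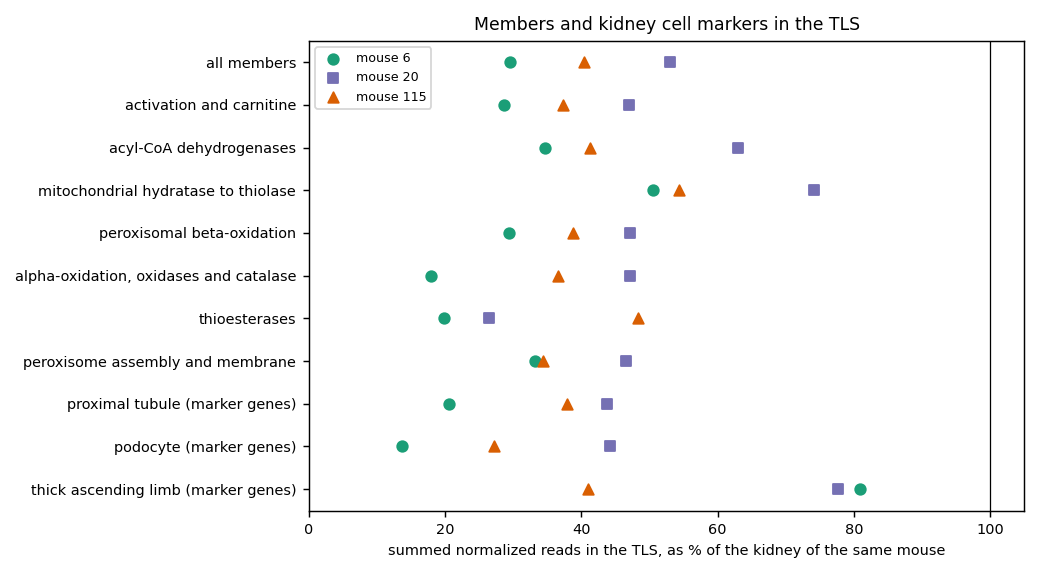
Summed normalized reads in the TLS of mice H6, H20 and H115 as a percentage of the kidney of the same mouse, for all members, for 7 roles and for marker genes of 3 kidney cell types. The members lie above the proximal tubule markers in each mouse, and the mitochondrial steps from hydratase to thiolase lie highest among the 7 roles in each mouse, between 50.5% and 74.1%.

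Among the 4 kidneys, that of mouse H115, the youngest of these mice (25 weeks), was the highest in 34 of the 44 tested members (77.3%), against 32.1% of all genes tested. Its TLS was likewise the highest of the 3 TLS in 39 members (88.6%), against 35.6% of all genes. The kidney of mouse H20 was the highest in 0 members. Genes of tubular injury were higher in mice H6 and H20 than in mice H115 and H117. Havcr1, the kidney injury molecule of the proximal tubule, had 530.5, 317, 30.1 and 37.3 in the 4 kidneys, and Lcn2, lipocalin released by injured tubules, 96.4, 69.2, 2.32 and 1.77. Proximal tubule markers were also highest in mouse H115, with sums of 26329 and 20614 in mice H115 and H117 and of 8616 and 10539 in mice H6 and H20. The members did not follow them in mouse H117, whose kidney was the highest in 4 of the 44, beside 6 for mouse H6. Acadm and Hao2 were second highest in mouse H117, while Crot and Dao were lowest there. The spread among the kidneys differed between members. Acot1, Acot12, Eci1 and Acsm2 differed by less than 2-fold between the 4 kidneys, and so did Eci2, Crot, Hadh and Phyh. Acsm1, Acadm, Acox2, Hao2 and Ehhadh differed by more than 3-fold, as did Pxmp2 and Acox3 at low values. These are examples and not full lists. Age, extent of injury and the single library cannot be told apart, since each kidney is 1 mouse.

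The lymph nodes were compared between antibody-positive and proteinuric mice. No member was called (0 of 28 tested), and 0% of the 6810 genes tested were called by limma. With an unadjusted p under 0.05 there were 215 genes, of which 0 were members. DESeq2 called 13 genes and edgeR 0, and no member was among them. Lymph nodes of antibody-positive mice were extracted with miRNeasy columns and the others with TRIzol, so that kit and disease state cannot be told apart. Cat was the only tested member without overlap, with 28.7, 40.9 and 65.4 in antibody-positive and 21.7, 27.5 and 28.3 in proteinuric mice (log2 fold change 0.71 ± 0.35, adjusted p 0.998). How many of all tested genes lay without overlap here was not counted, so the values of Cat are a description only. The median log2 fold change over the 28 members was 0.25, with 0.08 for all genes. When the lymph node of mouse L25 was left out, 25 members were tested, and their median was −0.26 (0.13 for all genes).

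Many members were highest in a single lymph node. Among the 7 lymph node libraries, that of mouse L25 was the highest in 23 of the 28 tested members (82.1%), against 19% of all genes tested. The filter on the mean value included this library, for members and for all genes. With mouse L25 left out, 25 members passed it, so some of the 28 were tested only through their value in mouse L25. The share among members that pass without mouse L25 was not counted. The 23 members included mitochondrial members such as Acaa2 and Decr1 and peroxisomal members such as Cat, Ech1 and Hsd17b4. Acaa2 had 36.2, 104 and 34.8 in proteinuric mice, 33.4, 58.03 and 287 in antibody-positive mice and 78.7 in the young mouse. Acadl had 65.2, 96.6 and 33.2 in proteinuric mice, 31.5, 56.1 and 151 in antibody-positive mice and 81.4 in the young mouse. Hadha had 27.5, 52.1 and 29.9 in proteinuric mice, 21.3, 35.2 and 94.1 in antibody-positive mice and 40.3 in the young mouse. In each of the 3 genes the lymph node of mouse L25 was highest and that of proteinuric mouse H20 second. Other members had another order behind mouse L25. The young mouse was second for Decr1 (13.4) and Hadhb (34.9), and mouse D11 for Cat (40.9). Genes of fat cells were measured beside them. Ucp1, the uncoupling protein that defines brown adipocytes, had 164, 263 and 41.3 in proteinuric mice, 8.34, 52.3 and 581 in antibody-positive mice and 183 in the young mouse. Adipoq, adiponectin of fat cells, had 23.2, 59.7 and 9.71 in proteinuric mice, 16.7, 95.1 and 207 in antibody-positive mice and 51.004 in the young mouse. The lymph node of mouse L25 was the highest for both genes, followed by mouse H20 for Ucp1 and by mouse D11 for Adipoq. Summed over 5 brown adipocyte markers, the proteinuric mice had 385, 665 and 90.6, the antibody-positive mice 24.1, 189 and 1646 and the young mouse 398. The sum of 8 white adipocyte markers was 174, 529.6 and 47.7 in proteinuric mice, 131, 464 and 842 in antibody-positive mice and 363 in the young mouse. No kidney held a read of Ucp1 or of any of the 8 white adipocyte markers. In TLS, mouse H20 had an Ucp1 value of 71.5 and the others no read. The part of fat around the lymph node in the level of these members was not tested. The oxidases Hao2, Dao and Pipox and the synthetases Acsm1 and Acsm2 were without a read in all 7 lymph nodes, also where the adipocyte genes were high.

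**Figure D5:**
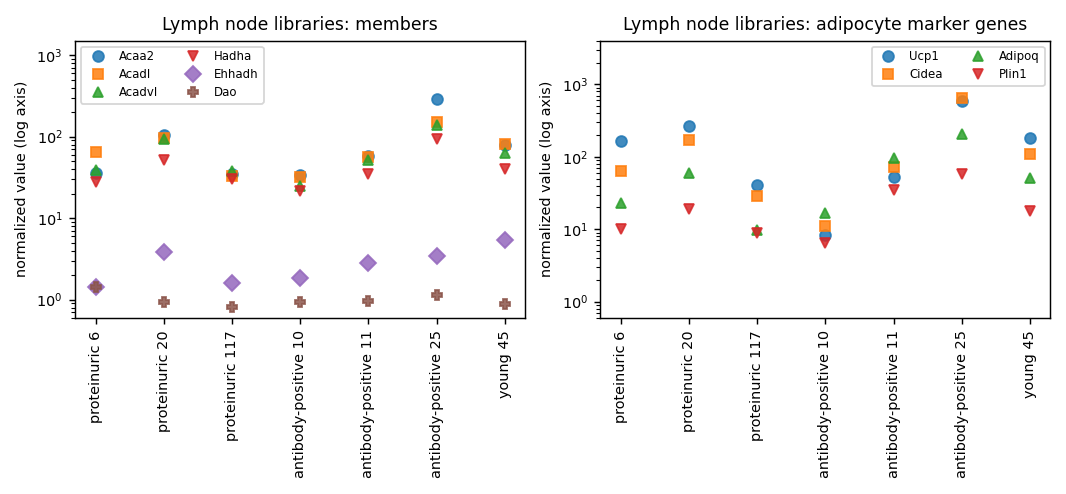
Normalized values (log axis) in the 7 lymph node libraries of 6 members (left) and 4 adipocyte marker genes (right). Acaa2 and Ucp1 are highest in the antibody-positive mouse L25 (287 and 581) and next highest in the proteinuric mouse H20 (104 and 263), while Dao is without a read throughout. For Adipoq, mouse D11 is next highest after mouse L25.

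Other genes of the same pathways, from lists of genes that are no members, were set beside the members. Of 31 tested genes of fatty acid oxidation outside the list, 6 were up-regulated in kidney compared with TLS, among them Acsf3, Acsm5, Ivd, Pecr and Slc22a5, and 0 in TLS, and compared with lymph node 17 were higher and 1 was lower in kidney. Of all tested genes, 6.07% were called as higher in kidney than in TLS and 8.62% as lower. Against lymph node these shares were 23% and 20.8%. Of 20 other peroxisome genes, 3 (Dhrs4, Ephx2 and Idh1) were up-regulated in kidney compared with TLS and 0 in TLS. Of 13 genes of ketone bodies and PPAR targets, 3 were called, all higher in kidney. Among them were the fatty acid hydroxylases Cyp4a10 and Cyp4a14, with log2 fold changes of 1.77 ± 0.44 and 2.21 ± 0.42 (adjusted p 0.0171 and 0.00378). Cyp4a10 had values of 267, 145, 195 and 65.7 in kidney and 29.7, 50.3 and 53.4 in TLS, and Cyp4a14 had 160.03, 83.5, 84.6 and 53.2 in kidney and 13.6, 33.8 and 13.1 in TLS. Among 9 receptors and coactivators, Hnf4a and Sirt3 were up-regulated in kidney and Pparg, the receptor of adipocyte differentiation, in TLS. Pparg had no read in the 4 kidneys, 6.78, 10.2 and 6.54 in TLS and 11.6, 22.7 and 16.2 in lymph node. Of 8 tested genes of fatty acid synthesis, 0 were called between kidney and TLS (median log2 fold change 0.06), where 14.7% of all genes were called in either direction. Against lymph node, 2 (Elovl6 and Me1) were higher and 1 (Fasn) was lower in kidney (median 0.21), where 43.8% of all genes were called.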

How the data were processed

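Polyadenylated RNA of 14 tissue samples was sequenced on an Ion Torrent PGM, and reads were trimmed and mapped to GRCm38 by the authors in CLC Genomics Workbench with default settings. The deposited signal holds (reads + 1) / size factor. Multiplied by its size factor, 100% of the values were whole within 1e-06, and reads were recovered from them. How strand and reads with several positions were treated is not given in the sources used here, and 15 of the 47 members share exon bases with another gene of GENCODE M21. The whole-kidney samples of the series were not analysed here.

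The members and all lists of genes were chosen with earlier results of these data known. Every member could be named. Values are in full for the 2 highest members of each role in kidney, for members called against TLS or between lymph node groups, and for those higher in lymph node than in kidney. Other pathway genes are named where called against TLS, and some of these are not reported here. Myd88, Dvl2, Fasn, Scd1 and the marker genes were named after their values were seen, and the values of Hadha, Acox2 and Pxmp2 were likewise chosen for full display.

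Kidney, TLS and lymph node of proteinuric mice (10 libraries) entered 1 limma fit (version 3.58.1, robust with a trend, R 4.3.3) on log2(value + 1), keeping the 7382 genes whose mean reached 5. Genes were called at an adjusted p under 0.05 (Benjamini-Hochberg over all tested genes). The lymph nodes of antibody-positive and proteinuric mice had their own fit of 6810 genes, and the young mouse was described only. The pseudocount understates the change of low genes. Bounds take lymph node at 3 reads in the library where they are worth most (5.80), and floors cover counting error only. Samples are separate mice within a tissue, and mouse numbers pair the tissues of an animal. Deviations from the tissue mean correlated at 0.35 to 0.45 in the 3 pairs of kidney and TLS, and at −0.34 to 0.20 in the 5 pairs with lymph node. Between different mice the range was −0.50 to 0.36 in 9 pairs of kidney and TLS. With lymph node it was −0.35 to 0.51 in 9 pairs for kidney and −0.21 to 0.29 in 7 for TLS.

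Alternatives were edgeR 4.0.16 and DESeq2 1.42.0 on the recovered reads, TMM scaling, pseudocounts of 0.5 and 5, no filter or a mean of 20, calls that also need a log2 change of 1, the mouse as replicate block, a fit of 2 tissues, and each library left out. A model with the mouse as a term, and a fit without libraries over 20% ribosomal RNA, were added after seeing the data. Coding sequences were aligned with Biopython 1.88.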

Additional observations from a re-analysis of the deposited data

Results flagged for a closer look

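In the kidney of mouse H115, Cpt2, the inner carnitine palmitoyltransferase, stood far from the other 3 kidneys, with a value of 80.0 where the next was 41.6. The gap made up 0.981 of the range of the group, above Dixon's critical value for 4 samples. The groups of 44 members were examined in this way and 1 was marked, where chance marks about 1 in 20 groups.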

How the results depend on the processing

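No member was called against the direction given above in any alternative. In kidney versus TLS, the 17 calls became 5 with edgeR and TMM, 8 with edgeR and DESeq2 size factors, 11 with DESeq2 and 10 with only both tissues in the fit, and between 5 and 24 when a library was left out. The calls of 4 of the 17 members held in every alternative that tested them, against 29 of 37 in kidney versus lymph node and 7 of 15 in lymph node versus TLS. In kidney versus lymph node, the 37 calls became 22 with a mean of at least 20, where fewer members were tested (27), and 30 to 37 with a library left out. In lymph node versus TLS, the 15 calls became 8 with a pseudocount of 5, 9 with a mean of at least 20, 7 without the libraries over 20% ribosomal RNA, and 8 to 17 with a library left out. The cause of these changes was otherwise not tested. Between the lymph node groups, 0 members were called throughout.

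Since the mouse numbers pair the tissues, the replicate block was fitted. With the mouse number as replicate block the counts were 17, 37 and 15 in the 3 comparisons, and with the mouse as a term 23, 33 and 8. With that term, the log2 fold changes of kidney over lymph node turned to −0.10 for Hadha and −0.10 for Hadhb.

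With a library left out, the log2 fold change of kidney over TLS ranged from −0.034 to 0.57 for Hadha and from −0.12 to 0.42 for Hadhb, and over lymph node from −0.14 to 0.46 for Hadha and from −0.20 to 0.46 for Hadhb. The median of all genes in kidney over TLS was −0.11 with edgeR and TMM, where the members' median was 1.10, and it stayed between −0.16 and 0.14 in the tissue comparisons over all settings. The TLS of mouse H115 held 61.6% of the summed members of the mean kidney but 40.4% of its own kidney. At this depth a count of 0 in a library allows up to 3 reads.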

Other observations

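Scd1 and Fasn, genes of fatty acid synthesis, were also highest in the lymph node of antibody-positive mouse L25. Scd1, a fatty acid desaturase, had 138, 337 and 119 in the lymph nodes of proteinuric mice, 46.3, 473 and 2233 in those of antibody-positive mice and 426 in the young mouse. Fasn, fatty acid synthase, had 33.3, 155 and 65.6 in proteinuric mice, 22.2, 164 and 421 in antibody-positive mice and 121 in the young mouse. In kidney Fasn was 9.73, 6.75, 23.2 and 8.87, lower than in the lymph nodes of proteinuric mice (log2 fold change of kidney over lymph node −2.58 ± 0.64, limma adjusted p 0.00605), while Elovl6 and Me1, the other genes called among 8 tested of fatty acid synthesis, were higher in kidney. The lymph node of the young mouse, a single library without a test, had a sum over the 47 members of 724, within the range of the 6 other lymph nodes (364 to 1544).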
